A study of Mus musculus with 12 samples.

Results

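The genes of bile acid synthesis and transport were examined in whole liver RNA of mice fed alcohol (AF) and of their pair-fed (PF) controls. The set was chosen by gene symbol and holds 35 of the 54232 genes in the count table, namely 15 enzymes of synthesis and conjugation, 15 transporters and 5 regulators. Each of the 35 symbols belonged to a single Ensembl gene of GENCODE release M21. RNA sequencing was done on 5 PF and 7 AF livers with 1 library per mouse, all from male C57BL6/J mice labelled as 8-week in age. PF mice received an isocaloric high-fat liquid diet over 8 weeks. AF mice received the high-fat liquid diet with alcohol up to 27 g/kg/day over the same period and, from the second week, a weekly binge of 5 g/kg. This intragastric regimen models alcohol-associated steatohepatitis (ASH) and also includes a solid Western diet rich in cholesterol and saturated fat. Before the liquid feeding, mice received this solid diet or regular chow, and the groups are not named. Whether PF mice ate the solid diet as well is not given in the sources used here. Any difference in solid diet between the groups could not be told apart from alcohol. The interval between the last binge and killing was 1 day. The comparison asked how these genes differed between AF and PF livers.

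Bile acids are made from cholesterol in hepatocytes, conjugated to taurine or glycine and pumped across the canalicular membrane into bile. The classic pathway starts with Cyp7a1, the alternative pathway with Cyp27a1 and Cyp7b1. Most bile acids return from the gut in portal blood and are taken up again at the sinusoidal membrane. The nuclear receptor FXR, the product of Nr1h4, senses bile acids, induces the repressor SHP (Nr0b2) and the export pump Abcb11, and lowers synthesis.

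Between 24129900 and 30578639 reads per library were counted on genes. Counts were expressed per 1000000 reads (CPM) with TMM scaling factors, which lay between 0.832 and 0.901 for PF livers and between 0.880 and 1.36 for AF livers. The quasi-likelihood test of edgeR was run on 14168 genes. Differences are given as log2 fold changes of AF over PF livers (log2FC), and adjusted p values are from this test with Benjamini-Hochberg adjustment over all genes tested and a threshold of 0.05. On library totals without these factors, the median log2FC of all genes tested moved from 0.039 to 0.398. In all, 3116 genes were higher and 2518 lower with TMM factors, against 6452 and 939 on library totals. The labelled tissue was checked with 11 hepatocyte markers, all of which were detected. Their summed level was 114100 to 159400 CPM in PF and 69640 to 128000 CPM in AF livers. Their median log2FC was -0.602, and 4 of the 11 were lower, where 17.8% of all genes tested were so. In bulk RNA, fewer hepatocytes and less RNA per hepatocyte cannot be told apart. Genes made in some other cells moved as well, where 22.0% of all genes tested were higher. Of the bile duct markers tested, 5 of 8 were higher in AF livers (summed 94.7 to 322.6 CPM in PF, 94.9 to 1265 CPM in AF), as were 6 of 8 stellate cell markers (188.1 to 481 CPM in PF, 403.2 to 961.3 CPM in AF). The same held for 4 of 6 Kupffer cell markers (602.1 to 810.8 CPM in PF, 793.5 to 2429 CPM in AF) and 3 of 7 markers of recruited macrophages (72.5 to 294.2 CPM in PF, 143 to 1571 CPM in AF). The log2FC of the macrophage markers ran from -0.84 to 7.76. Spp1 was on both the bile duct and the macrophage list, so these sums share a gene. None of the 6 neutrophil and 7 T and B cell markers passed the threshold. Only 1 of 7 sinusoidal endothelium markers was higher and 1 of 5 red blood cell markers was lower, both near the shares of all genes tested. The part of these shifts in the results below was not tested.

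Of the 35 bile acid genes, 34 had enough reads to be tested. Uptake transporters and the enzymes of the alternative pathway were mostly lower in AF livers. In contrast, the basolateral export pumps Abcc3 and Abcc4 and the phospholipid transporter Abcb4 were higher. Of the 34, 19 passed the threshold, where 39.8% of all genes tested did so. There were 14 of 34 genes (41.2%) that were lower, against 17.8% of all genes tested, and 5 of 34 (14.7%) that were higher, against 22.0% of all genes. On library totals, 12 of the 34 were lower and 7 higher, where 939 and 6452 of all 14168 genes tested were so. All 7 AF livers were below every PF liver for 11 of the 34 genes (32.4%), compared with 9.49% of all genes tested. All AF livers were above every PF liver for 3 of 34 (8.82%), compared with 8.20% of all genes, and in either direction 17.7% of all genes had no overlap. The set was chosen with earlier results of these data known, so these shares only describe it. The median log2FC of the 34 genes was -0.603, that of the hepatocyte markers -0.602 and that of all genes tested 0.039. On library totals the median was -0.256 for the 34 genes and 0.398 for all genes tested. Of the 19 genes past the threshold, 14 remained so in every alternative fit and without any single library. The remaining 5, Acox2, Scp2, Slc10a1, Abcb11 and Nr0b2, are given with their limits where they are described.

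**Figure D1:**
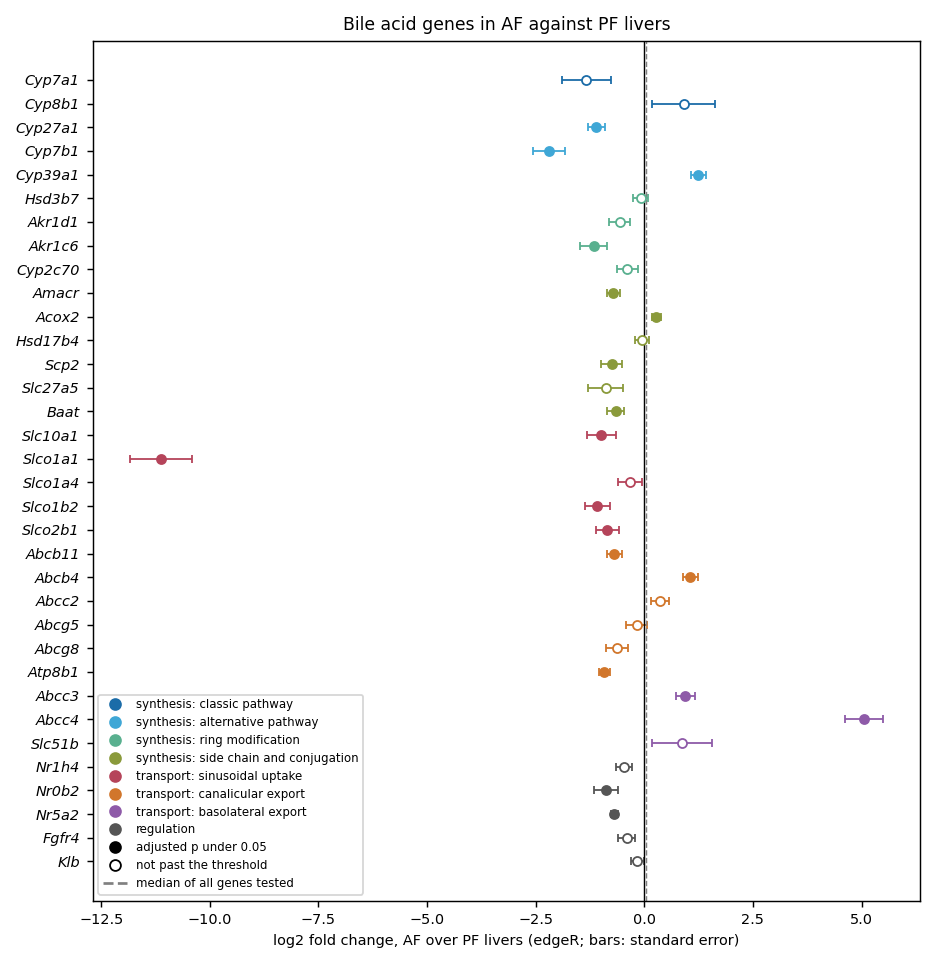
Log2FC of the 34 tested bile acid genes in AF over PF livers (x axis, edgeR; bars are standard errors), ordered and coloured by role. Filled points passed the adjusted p threshold of 0.05 and open points did not; Slco1a1 lies far to the left at -11.13 and Abcc4 far to the right at 5.05, while the dashed line marks the median of all genes tested at 0.039.

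The largest difference of a single gene, that of Slco1a1, was in sinusoidal uptake, the step that takes bile acids from blood into hepatocytes. Of the 5 uptake transporters, 4 were lower in AF livers and none was higher, where 17.8% of all genes tested were lower and 22.0% higher. Slco1a1, which codes for the organic anion transporter Oatp1a1 and is known to be more abundant in male than in female mouse liver, was at 263, 557, 125.7, 393.9 and 384.4 CPM in the 5 PF livers. In AF livers it ranged from 0 to 0.670 CPM with a median of 0.0313 CPM. No read was counted in 3 AF livers, and the 7 AF libraries held 32 reads in all against 39075 in the 5 PF libraries. The lowest PF liver was 187.7-fold above the highest AF liver, AF replicate 6. The fitted log2FC was -11.13 (standard error 0.707, adjusted p = 3.51e-07), but at so few reads this value depends on the prior count.

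Slco1a1 lies on chromosome 6 (141907282 to 141946962, minus strand, GRCm38) in a cluster with Slco1a4 (141805440 to 141856199, minus strand) and Slco1b2 (141629518 to 141686646, plus strand), so 3 genes of this cluster could be compared. Slco1b2, a main hepatic uptake carrier for unconjugated bile acids and drugs, was at 1629, 1886, 1848, 1863 and 1837 CPM in PF livers. Every AF liver was lower, from 306.6 to 1265 CPM with a median of 838.7 CPM, and the log2FC was -1.08 (standard error 0.298, adjusted p = 0.0122). Slco1a4, in contrast, lay between 51.9 and 76.3 CPM in PF livers and between 20.8 and 80.4 CPM in AF livers, and these groups overlapped (log2FC -0.34, standard error 0.271, adjusted p = 0.337). On library totals its log2FC was 0.02. There were 0.132 to 0.413 reads of Slco1a4 for each read of Slco1a1 in PF livers, and 57.1 to 666 in the 4 AF livers that had any Slco1a1 read. Near-identical stretches within the Slco1a family could share reads, and how the counting treated such reads is not given in the sources used here.

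Slc10a1 codes for NTCP, the sodium-dependent carrier for conjugated bile acids. It was at 738.5, 819.9, 714.6, 633.2 and 571.5 CPM in PF livers and between 140.2 and 601.9 CPM in AF livers, with a median of 249.6 CPM. AF replicate 7 was the only AF liver inside the PF range. The log2FC was -0.99 (standard error 0.327, adjusted p = 0.0284). This call was lost when PF replicate 1, 2 or 3 or AF replicate 3, 4 or 5 was left out, where adjusted p reached 0.0645, while the log2FC stayed between -1.17 and -0.85. Slco2b1, another organic anion carrier, was lower in AF livers (85.7 ± 36.9 CPM, SD, n = 7) than in PF livers (155.1 ± 16.7 CPM, SD, n = 5), with a log2FC of -0.86 (standard error 0.261, edgeR adjusted p = 0.0198). Its gene overlaps Gm15635 and Gm34280 on the opposite strand.

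Of the 4 genes of export across the basolateral membrane, which returns bile acids to blood, 3 were tested and 2 of these, Abcc4 and Abcc3, were higher in AF livers, where 22.0% of all genes tested were higher. Abcc4 codes for MRP4, which carries bile acids together with glutathione. It was at 4.57, 4.25, 11.3, 9.82 and 8.45 CPM in PF livers and between 125.7 and 559.3 CPM in AF livers, with a median of 222.6 CPM. The lowest AF liver, replicate 4, was far above the highest PF liver. The log2FC was 5.05 (standard error 0.435, adjusted p = 5.85e-06), which is 33.2-fold. AF replicate 5 was the highest, and without it the log2FC was 4.74. Calculated per length, Abcc4 ranked 33 of the 35 genes in PF (2.69 ± 1.19 TPM, SD, n = 5) and 17 in AF livers (118.8 ± 69.1 TPM, SD, n = 7). Abcc3, the gene of MRP3, averaged 260.1 ± 33.9 CPM (SD, n = 5) over the PF livers and 499.8 ± 160.8 CPM (SD, n = 7) over the AF livers, a log2FC of 0.94 (standard error 0.22, edgeR adjusted p = 0.00507). For Abcc3, 6 of 7 AF livers were above every PF liver and AF replicate 4, at 280.7 CPM, was not.

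The heterodimeric carrier OST is built from the products of Slc51a and Slc51b, which need each other at the membrane. Slc51a had 1 read in each of PF replicates 1 and 2 and none in any AF liver, where a count of 0 allows up to 3 reads or 0.0777 to 0.115 CPM per library. It was therefore not tested. Slc51b had 4 to 33 reads in PF and 2 to 90 reads in AF libraries. Its level was 0.183 to 1.62 CPM in PF and 0.0744 to 2.73 CPM in AF livers, and the groups overlapped (log2FC 0.86, standard error 0.696, adjusted p = 0.338). Slc51b passed in 1 of the 11 alternatives, the fit with the replicate number as a block, which also left out AF replicates 6 and 7. These were the lowest of the AF livers, at 0.0744 and 0.176 CPM. Both genes overlap exons of a gene on the opposite strand, Pcyt1a and Rasl12 respectively.

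Promoter sequences show the start regions of the 3 Slco genes of the chromosome 6 cluster, whose values are given above, and of Abcc4, the gene with the largest rise. They were taken from RefSeq on GRCm38.p6 and cover 250 bases before to 50 after an annotated start. Of the 35 genes, 26 had an entry, with 33 promoters in all, and no entry was matched for Cyp7a1, Cyp7b1, Cyp39a1, Amacr, Slc27a5, Baat, Hsd17b4, Atp8b1 and Abcc3. Capitals mark the nuclear receptor hexamer AGGTCA or its reverse complement TGACCT. Of the 2 entries of Abcc4, the one at the outer start is shown. The 4 sequences are given 5′ to 3′ on the strand of the gene.
Slco1a1 (chr6:141946913-141947212, minus strand): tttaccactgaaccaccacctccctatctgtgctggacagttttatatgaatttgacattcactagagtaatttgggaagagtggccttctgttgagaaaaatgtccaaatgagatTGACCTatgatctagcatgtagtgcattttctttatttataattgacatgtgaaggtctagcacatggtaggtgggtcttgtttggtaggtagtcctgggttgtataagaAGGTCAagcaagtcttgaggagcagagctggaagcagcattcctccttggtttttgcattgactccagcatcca
Slco1a4 (chr6:141856171-141856470, minus strand): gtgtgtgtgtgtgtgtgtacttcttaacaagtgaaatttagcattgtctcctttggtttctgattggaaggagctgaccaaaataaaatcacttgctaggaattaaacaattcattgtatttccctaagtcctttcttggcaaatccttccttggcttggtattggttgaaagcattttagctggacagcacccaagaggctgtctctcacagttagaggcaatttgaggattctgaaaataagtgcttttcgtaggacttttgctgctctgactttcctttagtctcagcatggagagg
Slco1b2 (chr6:141629268-141629567, plus strand): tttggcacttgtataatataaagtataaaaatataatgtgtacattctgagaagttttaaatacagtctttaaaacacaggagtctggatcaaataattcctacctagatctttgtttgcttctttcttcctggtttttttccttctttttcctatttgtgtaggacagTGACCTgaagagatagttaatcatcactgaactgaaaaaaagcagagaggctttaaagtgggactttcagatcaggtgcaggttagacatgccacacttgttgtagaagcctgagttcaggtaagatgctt
Abcc4 (chr14:118706170-118706469, minus strand): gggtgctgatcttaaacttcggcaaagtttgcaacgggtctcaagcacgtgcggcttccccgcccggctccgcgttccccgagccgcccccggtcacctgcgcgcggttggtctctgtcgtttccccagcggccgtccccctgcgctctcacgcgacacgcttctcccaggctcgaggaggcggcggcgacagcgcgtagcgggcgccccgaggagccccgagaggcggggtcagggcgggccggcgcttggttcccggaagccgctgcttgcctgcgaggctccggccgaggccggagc

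The hexamer was in 12 of the 33 promoters and in 16.3% of the 32851 promoters in the table. The promoter of Slco1a1 held 2, starting at positions 117 and 227 of the window, that of Slco1b2 held 1, starting at position 170, and that of Slco1a4 and both of Abcc4 held none. Longer patterns were also searched on both strands. These were CAAGGTCA, the site of the regulator LRH-1 (Nr5a2), in 1.56% of all promoters, the inverted repeat read by FXR (AGGTCA, any base, TGACCT), in 0.00913%, and the direct repeat (AGGTCA, any base, AGGTCA), in 0.0396%. All 3 contain the hexamer. None of the 3 was in a promoter of the set, which says only that these letters are not in these windows.

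At the canalicular membrane, where bile is formed, 2 of 6 genes were lower and 1 was higher, where 17.8% and 22.0% of all genes tested were so. Abcb11 codes for BSEP, the bile salt export pump. It was at 881, 772.4, 914.9, 887.8 and 929.2 CPM in PF livers and between 330.8 and 691.3 CPM in AF livers, with a median of 526.3 CPM, so all 7 AF livers were below every PF liver. The log2FC was -0.69 (standard error 0.169, adjusted p = 0.00635). On library totals it was -0.36 with an adjusted p of 0.0609. Abcb11 overlaps Gm13613 and Gm13614 on the opposite strand. Abcb4 codes for MDR2 in the mouse, which moves phosphatidylcholine into bile. It was at 207.5, 192.7, 156.6, 204.3 and 203.2 CPM in PF livers and between 249.5 and 527.8 CPM in AF livers, with a median of 411.1 CPM. Every AF liver was above every PF liver, and the log2FC was 1.06 (standard error 0.171, adjusted p = 6.19e-04).

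Atp8b1 codes for a phospholipid flippase of the canalicular membrane. It was lower in AF livers (36.6 ± 5.03 CPM, SD, n = 7) than in PF livers (69.2 ± 10.5 CPM, SD, n = 5), without overlap of the groups and with a log2FC of -0.92 (standard error 0.117, edgeR adjusted p = 1.19e-04). The cholesterol exporters Abcg5 and Abcg8, whose genes lie head to head and overlap in their exons, were narrow in PF livers at 113.6 to 119.2 CPM and 117.1 to 136.1 CPM. In AF livers they spread over 62.3 to 182.7 CPM and 42.9 to 138.2 CPM, and neither passed the threshold. Abcg8 had a log2FC of -0.64 (standard error 0.255, adjusted p = 0.0616), and it passed in 4 of the 11 alternatives that changed the tool, scaling, filter, offset or block, and without AF replicate 3 or 4. Abcg5 was at -0.17 (standard error 0.245, adjusted p = 0.592), and at 0.21 on library totals. Abcc2, the gene of MRP2, averaged 792.6 ± 92.5 CPM (SD, n = 5) over the PF livers and 1013 ± 320.3 CPM (SD, n = 7) over the AF livers (log2FC 0.35, edgeR adjusted p = 0.178), and on library totals its log2FC of 0.71 was past the threshold (adjusted p = 0.0136).

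Ratios of reads of 2 transporters within a library do not depend on the scaling, and they were described without a test. There were 0.00519 to 0.0124 reads of Abcc4 for each read of Abcb11 in PF livers and 0.259 to 1.07 in AF livers, with no overlap. The ratio of Abcb4 to Abcb11 was 0.171 to 0.250 in PF and 0.482 to 1.24 in AF livers, again with no overlap. The ratio of Abcb11 to Slc10a1 was 0.942 to 1.63 in PF and 0.987 to 2.79 in AF livers, where the groups overlapped and AF replicates 1, 3, 4 and 5 were above every PF liver.

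**Figure D2:**
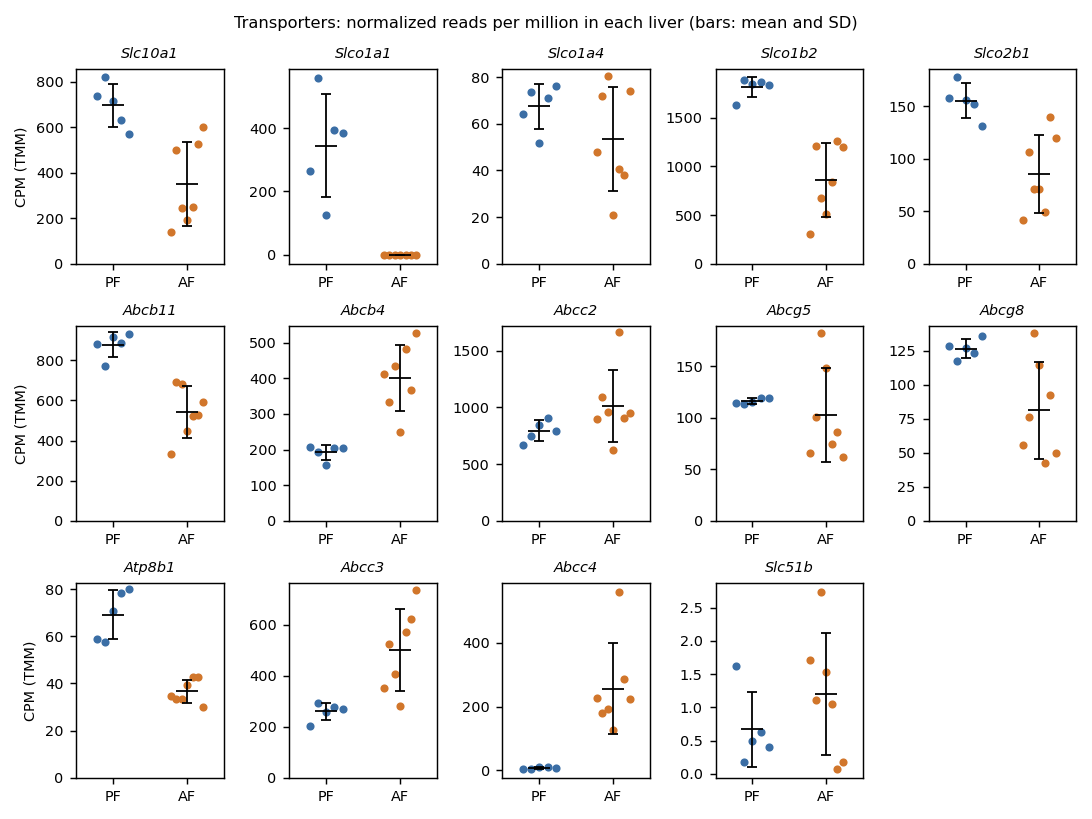
CPM of 14 transporters in each PF (blue, n = 5) and AF (orange, n = 7) liver; black bars are mean and SD, and each panel has its own linear scale. The AF livers lie at or near 0 for Slco1a1, far above PF for Abcc4, and between 249.5 and 527.8 CPM for Abcb4, above all PF livers.

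Among the enzymes of synthesis, all 3 of the alternative pathway, which begins with oxidation of the cholesterol side chain, passed the threshold, 2 of them lower and 1 higher in AF livers, where 39.8% of all genes tested passed. Cyp27a1, the mitochondrial sterol hydroxylase, was at 528.6, 564.2, 393.3, 419.5 and 446.6 CPM in PF livers and between 131.8 and 309 CPM in AF livers (median 195.5 CPM). The highest AF liver was below the lowest PF liver, and the log2FC was -1.10 (standard error 0.199, adjusted p = 0.00116). Cyp7b1, the oxysterol hydroxylase of this pathway, which is also known to be more abundant in male mice, was at 270.8, 207.6, 122.6, 189.8 and 186.1 CPM in PF livers. In AF livers it lay between 18.9 and 103.4 CPM with a median of 33.5 CPM. AF replicate 6 stood apart as the highest, and all AF livers were below the PF livers. The log2FC was -2.19 (standard error 0.362, adjusted p = 6.90e-04), and without AF replicate 6 it was -2.58.

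Cyp39a1 acts on another oxysterol, 24-hydroxycholesterol, and was the one enzyme of this group that was higher. It was at 23, 56.4, 31.2, 37.1 and 34.5 CPM in PF livers and between 73.3 and 106.7 CPM in AF livers (median 84.1 CPM). No AF liver overlapped the PF livers, and the log2FC was 1.25 (standard error 0.182, adjusted p = 3.12e-04). AF livers were closer to each other for this gene than PF livers were, with an SD of log2 values of 0.176 against 0.468.

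Neither gene of the classic pathway passed the threshold, and both varied widely between AF livers, with an SD of log2 values of 1.56 for Cyp7a1 and 1.84 for Cyp8b1. Cyp7a1, the rate-limiting enzyme of bile acid synthesis, was at 213.6, 93.7, 183.7, 231.4 and 151.5 CPM in PF livers. In AF replicates 1 to 7 it was at 7.54, 164.5, 59.2, 64.6, 56.4, 16.4 and 117.7 CPM. Thus 5 AF livers were below every PF liver and replicates 2 and 7 were inside the PF range. The log2FC was -1.33 (standard error 0.557, adjusted p = 0.0717), which did not pass the threshold. It became -1.73 with an adjusted p of 0.0228 when AF replicate 2 was left out, and it also passed with limma-voom with sample quality weights (adjusted p = 0.0188).

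Cyp8b1, the hydroxylase that sets the share of cholic acid, was at 91.4, 140.5, 66.1, 72.8 and 93.5 CPM in PF livers. In AF replicates 1 to 7 it was at 25.1, 326.4, 33.1, 30.3, 53.1, 264.3 and 483.9 CPM. Replicates 2, 6 and 7 were above every PF liver and replicates 1, 3, 4 and 5 below every PF liver, so that no AF value lay within the PF range. A fold change between group means describes neither set of livers, and the fitted value of 0.90 had a standard error of 0.723 (adjusted p = 0.333). Its sign changed with sample quality weights, to -0.21, and to -0.78 (adjusted p = 0.144) in the fit with the replicate number as a block, which also left out AF replicates 6 and 7, both high for this gene. Without AF replicate 7 the log2FC was 0.39. The ratio of Cyp8b1 to Cyp7a1 reads, which is free of scaling, was 0.314 to 1.5 in PF livers and 0.469 to 16.1 in AF livers. AF replicates 1, 2, 6 and 7 were above the PF range at 3.33, 1.99, 16.1 and 4.11, and replicates 3, 4 and 5 were within it. The ratio of Cyp7b1 to Cyp7a1 was 0.668 to 2.22 in PF livers and 0.284 to 6.29 in AF livers, with AF replicates 1 and 6 above and 2, 3, 4 and 7 below the PF range.

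Among the enzymes that modify the sterol ring, Akr1c6, an aldo-keto reductase, had the highest level per length of all 35 genes in PF livers (2246 ± 74.5 TPM, SD, n = 5). It was at 2138, 2161, 1935, 1983 and 2167 CPM in PF livers and at 318.8 to 1420 CPM in AF livers (median 800.9 CPM), with no overlap and a log2FC of -1.17 (standard error 0.316, adjusted p = 0.0109). As a member of a gene family it may share reads with its relatives. Akr1d1, the reductase that sets the bend of the ring system, had a log2FC of -0.57 (standard error 0.249, adjusted p = 0.0836), Cyp2c70, which makes the muricholic acids typical of mice, -0.39 (standard error 0.245, adjusted p = 0.216), and Hsd3b7 -0.09 (standard error 0.173, adjusted p = 0.711). None of these passed, and Hsd3b7 was at 0.24 on library totals. Exons of Hsd3b7 overlap Gm49388 on the same strand and 9430064I24Rik on the opposite strand, so its count may be affected. Akr1d1 passed in 2 of the 11 alternatives, one of them limma-voom with samples weighted by quality (log2FC -0.70, adjusted p = 0.0254), and without AF replicate 2 (log2FC -0.73, adjusted p = 0.0280).

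Of the 6 genes of side chain shortening and conjugation, 3 were lower and 1 was higher, where 17.8% and 22.0% of all genes tested were so, and the 1 higher gene was near that background. Amacr, the racemase that prepares the side chain, was lower in AF livers (73.8 ± 17.6 CPM, SD, n = 7) than in PF livers (120.9 ± 12.2 CPM, SD, n = 5), a log2FC of -0.71 (standard error 0.158, edgeR adjusted p = 0.00385). Baat, which joins bile acids to taurine and glycine, was lower in AF livers (218.1 ± 68.3 CPM, SD, n = 7) than in PF livers (344.9 ± 16.6 CPM, SD, n = 5), a log2FC of -0.66 (standard error 0.195, edgeR adjusted p = 0.0169). Scp2, the peroxisomal thiolase and sterol carrier, averaged 2845 ± 132.8 CPM (SD, n = 5) over the PF livers and 1688 ± 619.7 CPM (SD, n = 7) over the AF livers, with a log2FC of -0.75 (edgeR adjusted p = 0.0276). The AF livers were below every PF liver for all 3 genes. The call of Scp2 was lost with a GC and length offset (adjusted p = 0.0503) and without PF replicate 1, 2 or 5 or AF replicate 4, where adjusted p reached 0.0549.

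Acox2, the branched-chain oxidase of this step, was higher by a log2FC of 0.28 (adjusted p = 0.0465), but it remained past the threshold without only 1 of the 12 libraries, AF replicate 1, and in 6 of the 11 other alternatives. Slc27a5, the ligase that activates bile acids before conjugation, lay between 833.4 and 1199 CPM in PF livers and between 188.3 and 992.5 CPM in AF livers, a log2FC of -0.89 that was not past the threshold (standard error 0.399, adjusted p = 0.0910). It passed in 4 of the 11 alternatives and without AF replicate 7 (adjusted p = 0.0373). Hsd17b4, which follows Acox2 in the peroxisome, was at 417.3 ± 18.8 CPM (SD, n = 5) and 403.6 ± 98.8 CPM (SD, n = 7), a log2FC of -0.05 (edgeR adjusted p = 0.828) that turned to 0.27 on library totals (adjusted p = 0.0327).

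**Figure D3:**
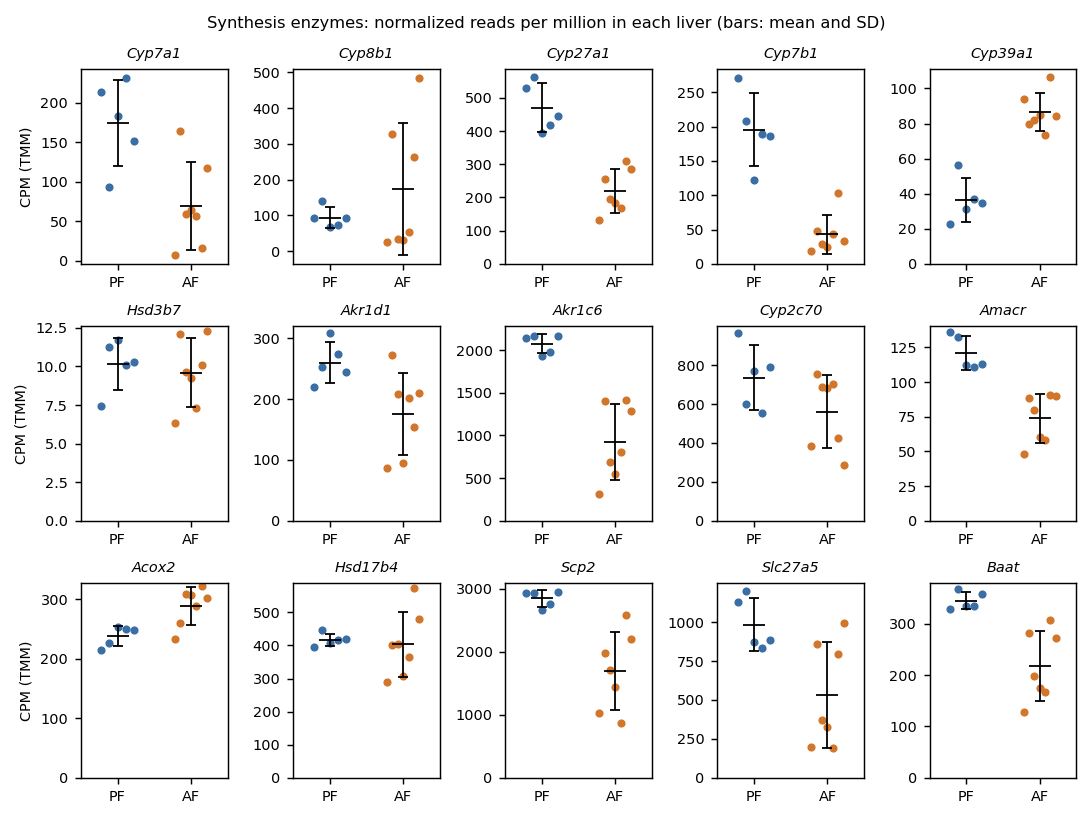
CPM of the 15 enzymes of synthesis and conjugation in each PF (blue, n = 5) and AF (orange, n = 7) liver; black bars are mean and SD, and each panel has its own linear scale. For Cyp8b1, 3 AF livers lie above and 4 below all PF livers, whereas for Cyp27a1 and Cyp7b1 all AF livers lie below.

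Of the 5 regulators, 2 were lower and none was higher, where 17.8% of all genes tested were lower and 22.0% higher. One of the 2, Nr0b2, did not pass in 4 of the 11 alternatives. Nr5a2, the gene of LRH-1, which activates Cyp7a1 and Cyp8b1, was at 90.5, 93.8, 106.5, 101 and 103.1 CPM in PF livers and between 54.2 and 69.1 CPM in AF livers (median 62.0 CPM). The groups did not overlap, and the log2FC was -0.69 with the smallest standard error among the 34 genes (0.0825, adjusted p = 7.45e-05). Nr0b2 was at 9.59, 13.2, 8.91, 3.5 and 9.86 CPM in PF livers and between 3.11 and 6.92 CPM in AF livers (median 4.81 CPM). PF replicate 4 was as low as the AF livers. The log2FC was -0.89 (standard error 0.274, adjusted p = 0.0207). Nr0b2 fell short of the threshold without PF replicate 2 (adjusted p = 0.0672) and on library totals (adjusted p = 0.142). It also did so with limma-voom (adjusted p = 0.0542, and 0.122 when samples were weighted by quality). In the fit with the replicate number as a block, adjusted p was 0.0508.

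Nr1h4 was at 124.5, 146.6, 119.4, 87.8 and 111.2 CPM in PF livers and between 64.6 and 115.5 CPM in AF livers (median 71.2 CPM). These overlapped, and the log2FC of -0.47 was just short of the threshold (standard error 0.182, adjusted p = 0.0553). It passed in 4 of the 11 alternatives, among them DESeq2 (adjusted p = 0.0322), RLE factors (adjusted p = 0.0478) and limma-voom with samples weighted by quality (adjusted p = 0.0160), and without PF replicate 4, AF replicate 6 or AF replicate 7 (adjusted p down to 0.0216). On library totals the log2FC was -0.15 (adjusted p = 0.324). Fgfr4 and Klb form the hepatic receptor for the gut hormone FGF15. Fgfr4 had a log2FC of -0.40 (standard error 0.197, adjusted p = 0.118), which was -0.73 with a GC and length offset (adjusted p = 0.00327). Klb was at -0.16 (standard error 0.149, adjusted p = 0.396), and at 0.18 on library totals. Fgf15 itself had 0 reads in all 12 libraries.

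Across livers, the set spread more widely in AF than in PF mice. The median SD of log2 values over the 34 genes was 0.202 in PF and 0.520 in AF livers, compared with 0.213 and 0.297 over all genes tested. The SD was larger in AF livers for 31 of the 34 genes (91.2%), compared with 71.8% of all genes. The order of the AF livers was shared by many members. AF replicates 2, 6 and 7 were the 3 highest AF livers for 13 of 34 genes (38.2%), compared with 8.98% of all genes tested. These 13 were Cyp8b1, Cyp27a1, Hsd3b7, Akr1c6, Amacr, Scp2, Slc27a5, Baat, Slc10a1, Slco1a1, Slco1b2, Slco2b1 and Nr1h4. They were the 3 lowest AF livers for none of the 34. AF replicate 1 was the lowest AF liver, alone or tied, for 17 of 34 genes, compared with 17.5% of all genes. The 17 include Slco1a1, where replicates 1, 3 and 5 were tied at 0 reads. AF replicates 2, 6 and 7 also had the 3 lowest TMM factors among AF livers, at 1.04, 0.880 and 0.960, and replicate 1 had the highest at 1.36. On library totals, where the factors play no part, replicates 2, 6 and 7 were the 3 highest for 10 of the 34 genes (29.4%), compared with 2.68% of all genes. These livers were noticed in the data and are not groups of the study, so no test was made.

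**Figure D4:**
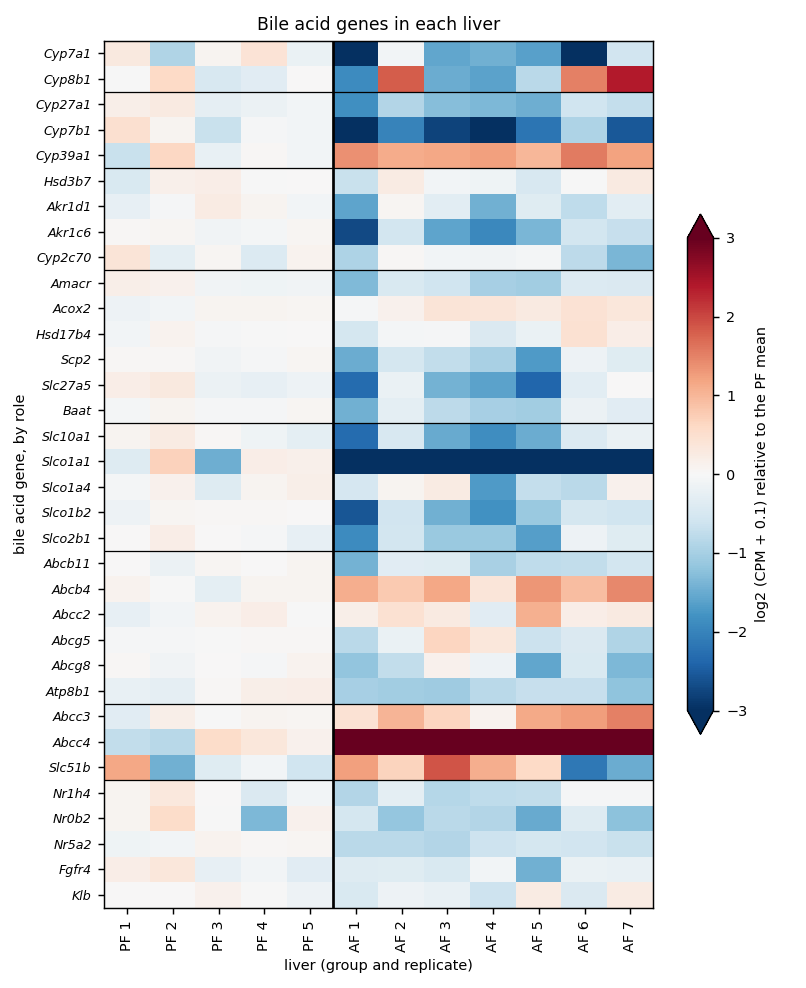
Level of 34 bile acid genes (rows, by role) in each liver (columns), as log2 of CPM plus 0.1 relative to the PF mean; colours are capped at 3 in either direction. Slco1a1 and Abcc4 reach the cap in all 7 AF livers, and AF replicates 2, 6 and 7 are the palest AF columns for Akr1c6, Slc10a1 and Slco1b2.

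Other genes of the pathway were taken from 3 further lists. Of 11 tested genes of synthesis, 1 was higher and 3 were lower (median log2FC -0.025), so that the 4 past the threshold were near the 39.8% of all genes tested. Cyp2a12, which re-hydroxylates bile acids returning from the gut in mice, was higher in AF livers (923.5 ± 306.8 CPM, SD, n = 7) than in PF livers (461 ± 65.1 CPM, SD, n = 5), a log2FC of 1.00 (edgeR adjusted p = 0.00369). Fdx1, the electron donor of Cyp27a1, had a log2FC of -0.95 (adjusted p = 0.00187), Abcd3, which brings bile acid precursors into peroxisomes, -0.55 (adjusted p = 0.0122), and Pex5, the import receptor of peroxisomal enzymes, -0.51 (adjusted p = 0.0207). Abcd3 and Pex5 did not pass on library totals (adjusted p = 0.112 and 0.128).

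Of 15 tested transport genes, 3 were higher and 7 lower (median log2FC -0.556), where 22.0% and 17.8% of all genes tested were so. The count of higher genes was near that background. Slc10a2 codes for ASBT, the carrier that takes up bile acids in the ileum and in bile ducts. It was at 104.7, 121.9, 94.8, 138.1 and 141.6 CPM in PF livers and between 3.59 and 16.9 CPM in AF livers (median 9.89 CPM), with no overlap and a log2FC of -3.59 (standard error 0.340, adjusted p = 1.23e-05). Of the bile duct markers, 5 of 8 were higher, where 22.0% of all genes tested were so. The groups overlapped for each of the 8, and their part in the value of Slc10a2 was not tested. Slc10a5, a relative of NTCP, had a log2FC of -1.10 (adjusted p = 6.33e-05). The efflux pumps Abcc1 and Abcb1a were higher by 1.70 and 1.53 (adjusted p = 0.00117 and 0.0136), and Abcb1a did not pass with limma-voom (adjusted p = 0.0583).

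Of 13 tested regulators outside the set, 2 were higher and 3 lower (median log2FC -0.224), and these 5 were again near the 39.8% of all genes tested. Ppargc1a, a coactivator of Cyp7a1 transcription, was lower in AF livers (5.32 ± 0.581 CPM, SD, n = 7) than in PF livers (19.7 ± 7.59 CPM, SD, n = 5), a log2FC of -1.89 (edgeR adjusted p = 3.29e-05). Onecut1, a hepatocyte transcription factor, had a log2FC of -1.62 (adjusted p = 6.76e-04). S1pr2, a receptor that conjugated bile acids can activate, was higher by 1.15 (adjusted p = 2.57e-04), and Nr1h2, the gene of LXR beta, by 0.57 (adjusted p = 0.00642). Nr1h2 did not pass with a GC and length offset (adjusted p = 0.0514). Hnf4a, which activates many genes of the set, averaged 668.5 ± 104.6 CPM (SD, n = 5) over the PF livers and 570.5 ± 197.4 CPM (SD, n = 7) over the AF livers (log2FC -0.23, edgeR adjusted p = 0.401). Without AF replicate 6, at 979.1 CPM the highest AF liver, its log2FC was -0.41 (adjusted p = 0.0389).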

How the data were processed

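Per the labels and the paper's methods, total liver RNA was extracted with TRIzol, mRNA was enriched with oligo(dT) beads, and stranded libraries were made. The submitters' processing notes name FastQC 0.10.1, TopHat2 2.0.13 and HTSeq 0.10.0, with assembly GRCm38 (mm10). Raw counts for each Ensembl gene ID, not normalized, were deposited. The paper's Cuffnorm FPKM values and Cuffdiff2 tests were not used here, since a count test fits these values. The annotation and strand setting of the counting are not given in the sources used here, so reads of genes that overlap on opposite strands may be mixed. Columns were assigned to mice by the group and replicate number in their names. Gene names, positions and exon lengths came from GENCODE M21, which named 54165 of 54232 IDs.

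Counts were analysed in R 4.3.3 with edgeR 4.0.16 (TMM, filterByExpr, quasi-likelihood test, no covariates), tested first on simulated data. The standard error was derived from the F statistic. Alternatives used DESeq2 1.42.0, limma 3.58.1 (voom, with and without sample quality weights), RLE and upper-quartile factors, library totals, looser and stricter filters (any count of at least 1, mean count of at least 10), robust dispersion, an offset for GC content and length, replicate number as a block, and each of 12 libraries left out. TPM values were calculated from counts and merged exon length. SDs of log2 values were taken on CPM plus 0.1. Among 31 pairs of libraries within groups, the lowest ratio of their difference to counting noise was 21.2, so no library was counted as a repeat. Reads carry no molecular identifiers, so the limits for counts of 0 (3 counts, 95% confidence) cover counting error only.

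Single values of PF livers, with each value or the range and median of AF livers, are given for bile acid genes of the set past the threshold with an absolute log2 fold change of at least 1 and for Cyp7a1, Cyp8b1, Cyp27a1, Slc10a1, Abcb11, Nr1h4 and Nr0b2. They are also given for Nr5a2 and Slc10a2, which were chosen after their values were seen. Of the other pathway lists, up to 4 called genes with the largest change are named, and Fgf15 and Hnf4a. The members and lists were chosen with earlier results of these data known.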

Additional observations from a re-analysis of the deposited data

Results flagged for a closer look

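In 47 genes named above, the highest and the lowest liver of each group were compared with the others by Dixon's limit, in 94 groups of values. The limit was passed in 5, where chance gives about 4.7. In AF livers these were Cyp7b1 in replicate 6 (103.4 CPM, the highest), Abcc4 in replicate 5 (559.3 CPM, the highest), Fgfr4 in replicate 5 (7.89 CPM, the lowest) and Hnf4a in replicate 6 (979.1 CPM, the highest). In PF livers it was Slco1b2 in replicate 1 (1629 CPM, the lowest). Without the liver in question, the log2 fold changes were -2.58 for Cyp7b1, 4.74 for Abcc4, -0.28 for Fgfr4, -0.41 for Hnf4a and -1.12 for Slco1b2. The widely spread genes of the classic pathway, Cyp7a1 and Cyp8b1, did not pass the limit in either group.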

How the results depend on the processing

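Of 782 values of single bile acid genes over the alternatives and the fits without a library, 712 kept their direction and side of the threshold, 33 fell short of it, 27 newly passed it and 10 changed sign. On library totals without TMM factors, 6452 genes were higher and 939 lower, and the log2 fold changes of Hsd3b7 (0.24), Hsd17b4 (0.27), Slco1a4 (0.0151), Abcg5 (0.21), Klb (0.18) and Hnf4a (0.0843) turned positive. Hsd17b4 was also positive with upper-quartile factors (0.0040) and without AF replicate 1 (0.0226) or 4 (0.0100), with a range of -0.153 to 0.0226 over the fits without a library. Cyp8b1 turned negative with sample quality weights (-0.21) and in the replicate block (-0.78). The cause was not tested. Bile acid genes lower in AF livers numbered 12 to 18 over the alternatives with all libraries and 11 to 16 without a library, and those higher 4 to 7 and 4 to 5. Among all genes tested in the same fits, those lower numbered 939 to 3541 and 2119 to 2923. Those higher numbered 2619 to 6452 and 2520 to 3574. Same-numbered PF and AF libraries correlated from -0.075 to 0.117 in their deviations. Pair-feeding need not make such deviations correlate, so these values cannot show whether the numbers pair the mice. With the replicate number as a block over replicates 1 to 5, 5 bile acid genes were higher and 17 lower, with AF replicates 6 and 7 left out by construction. Of all 14168 genes tested, 3389 were higher and 2939 lower with this block. In that fit Slc51b (1.44, adjusted p = 0.0203), Akr1d1 (-0.72, 0.0443), Slc27a5 (-1.57, 0.00475), Nr1h4 (-0.68, 0.00246), Fgfr4 (-0.52, 0.0318) and Hnf4a (-0.49, 0.013) newly passed, and Nr0b2 (-0.89, 0.0508) and Acox2 (0.22, 0.0822) no longer did. Low counts limit Slc51a, Slc51b and, in AF livers, Slco1a1.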
